A study of Mus musculus with 6 samples.

Results

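Platelet-derived growth factor (PDGF), fibroblast growth factor (FGF) and hepatocyte growth factor (HGF) signalling was described through 10 genes of these pathways, 5 ligands (Pdgfa, Pdgfb, Fgf2, Fgf7 and Hgf) and 5 receptors (Pdgfra, Pdgfrb, Fgfr1, Fgfr2 and Met). The genes were chosen by name, and all 10 were among the 13595 genes of the deposited table. RNA came from CD31-positive cells, selected for an endothelial surface protein, from livers of C57BL6/J mice 4 weeks old and grown in culture. Every culture received 100 µM indoxyl sulfate, a tryptophan metabolite that activates the aryl hydrocarbon receptor, and was kept in hypoxia with nutrient deprivation for 6 hours. The labels set the 6 libraries apart by sex, with 3 labelled male and 3 labelled female, each group carrying replicate numbers 4, 5 and 6. They name no date or run, so any batch that went with sex cannot be told apart from it. Neither the agent nor low oxygen can be compared with its absence here, because all 6 libraries share both. The labels do not say whether replicates are mice, isolations or wells, so each SD and p-value covers only the spread between these libraries.

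The 3 families share one plan. A secreted ligand binds a receptor tyrosine kinase on the same or a neighbouring cell, the receptors pair and phosphorylate each other, and adaptor proteins carry the signal to the RAS-ERK and PI3K pathways. In the liver, PDGF ligands are made by endothelial cells and platelets and act on stellate cells and fibroblasts, which carry the PDGF receptors. HGF is made mainly by mesenchymal and sinusoidal endothelial cells and drives hepatocyte growth through MET, while FGF7 is a mesenchymal factor that acts on epithelial cells.

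Some facts of the whole table bear on every value. The libraries held between 22303270 and 31189363 reads over the listed genes, and 3 reads corresponded to a normalized read count of 0.106 to 0.142. Xist, the RNA of X inactivation, lay between 234 and 324 in the libraries labelled female and between 0.124 and 0.458 in those labelled male. Transcripts of the Y-linked genes Ddx3y, Uty, Eif2s3y and Kdm5d were nevertheless present in every library labelled female, with Ddx3y at 52.1 ± 4.93 (SD, n = 3) against 57.0 ± 16.8 (SD, n = 3). Uty was at 24.1 against 26.9 and, like Ddx3y, was not called, while Eif2s3y (29.8 against 58.1, limma adjusted p 5.76e-06) and Kdm5d (19.1 against 34.8, limma adjusted p 0.000129) were lower. This presence goes against the label, and each direction below rests on these labels. Differences are given on the log2(value + 1) scale, which understates those of weakly expressed genes, and a male level is the mean of the 3 libraries labelled male. With limma on that scale, 69.3% of all 12568 tested genes had an adjusted p under 0.05, 34.6% upward and 34.6% downward in those labelled female, and for 74.1% the groups did not overlap. A share of calls near these values is therefore the background of the table. Male replicate 4 stood further from its group than any other library, with a median deviation of 0.12 on the log2 scale against 0.044 to 0.075 in the other 5.

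Promoter sequences are shown for the member that was most increased, the one that was most decreased and the one that did not pass the test. They are the 250 bases before the annotated start, from RefSeq on GRCm38.p6, read 5′ to 3′ on the strand of the gene. Capitals mark GCGTG, the core that the aryl hydrocarbon receptor complex binds, ACGTG, a core of hypoxia response elements, and TGACTCA, an AP-1 element, on either strand. Because the submitters' processing notes name another build, mm39, the coordinates belong to these sequences alone. The Fgf7 window is chr2:126034408-126034657 (plus strand), the Hgf window is chr5:16553245-16553494 (plus strand, the first of 2 annotated starts) and the Met window is chr6:17463707-17463956 (plus strand).
Fgf7: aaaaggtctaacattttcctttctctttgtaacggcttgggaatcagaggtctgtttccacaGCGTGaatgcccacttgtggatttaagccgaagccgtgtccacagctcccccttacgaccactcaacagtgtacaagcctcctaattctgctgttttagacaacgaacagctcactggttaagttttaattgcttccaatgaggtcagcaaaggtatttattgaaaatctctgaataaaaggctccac
Hgf: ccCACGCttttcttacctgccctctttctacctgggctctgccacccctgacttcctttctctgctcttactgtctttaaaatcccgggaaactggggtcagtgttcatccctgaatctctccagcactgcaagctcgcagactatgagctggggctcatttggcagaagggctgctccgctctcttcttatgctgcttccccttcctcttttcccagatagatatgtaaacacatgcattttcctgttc
Met: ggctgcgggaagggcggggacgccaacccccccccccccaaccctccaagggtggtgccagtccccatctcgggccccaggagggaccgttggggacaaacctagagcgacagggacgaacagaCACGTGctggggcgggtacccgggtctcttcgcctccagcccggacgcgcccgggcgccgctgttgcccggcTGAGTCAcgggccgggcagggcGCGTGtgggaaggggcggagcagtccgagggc
The Fgf7 window held 1 GCGTG match, beginning 188 bases before the start, and the Hgf window shown held 1, at 248 bases. The window of the second annotated Hgf start (chr5:16553651-16553900) held none of the 3 motifs. The Met window held GCGTG at 32 bases, TGACTCA at 54 bases, and ACGTG on both strands of a single CACGTG at 125 and 126 bases. Of the 10 members, 7 matched the promoter table, with 9 windows, and 5 of these windows held GCGTG. Among all 32851 windows of the same length, 28.2% held GCGTG, 16.6% held ACGTG and 4.46% held TGACTCA. These windows were not matched for GC content, whose median was 52.4%. Of the member windows with GCGTG, those of Met (74.0%), Pdgfa (72.4%) and Fgf2 (62.4%) were above it. Those of Hgf (50.8%) and Fgf7 (43.6%) were below. These matches describe letters in the windows, and the files hold no binding data.

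Among the ligands, the FGF genes rose, Hgf fell to 2.12% of its male level, and the PDGF genes moved in opposite directions. Fgf7 was 44.7-fold higher in the libraries labelled female and Hgf 47.3-fold lower, and these were the 2 largest changes among the members. Fgf2 rose 4.24-fold and Pdgfa 2.09-fold, whereas Pdgfb fell to 26.2% of its male level. All 5 ligands passed the limma threshold, 3 higher and 2 lower, beside 34.6% of all tested genes in each direction. However, both lower ones, Pdgfb and Hgf, reached a value of 1 in the libraries labelled male alone. They entered the test only through the group in which they were high, and their calls support no count.

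Fgf7 (chromosome 2), keratinocyte growth factor, had normalized read counts of 1.66, 1.45 and 1.70 in male replicates 4, 5 and 6, and of 71.5, 69.8 and 73.5 in female replicates 4, 5 and 6. All libraries labelled female lay far above all those labelled male, and within each group the libraries were close together. The means were 1.60 ± 0.133 and 71.6 ± 1.82 (SD, n = 3), resting on 38 to 48 reads in a library labelled male and 1547 to 1722 in one labelled female. This is an increase of 4.80 on the log2 scale (SE 0.09, limma adjusted p 7.94e-09), the sixth largest increase among the tested genes.

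Hgf (chromosome 5), the ligand of MET, had 33.0, 46.3 and 41.3 in the libraries labelled male and 0.955, 0.884 and 0.712 in those labelled female. The groups lay apart in all 6 libraries, and male replicate 4 was the lowest of its group, at 75.3% of the mean of the other 2. The means were 40.2 ± 6.75 and 0.850 ± 0.125 (SD, n = 3), with only 15 to 23 reads in each library labelled female. Hgf fell by 4.47 on the log2 scale (SE 0.14, limma adjusted p 7.62e-08), the 34th largest decrease among the 12568 tested genes. Because a pseudocount of 1 compresses low values, edgeR's quasi-likelihood test on the recovered reads gave -5.56 for Hgf (adjusted p 1.21e-07) and 5.47 for Fgf7 (adjusted p 8.73e-09). An unclassified transcript, Gm43489, covers 6.74% of the exon bases of Hgf on the same strand and is not a row of the table.

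Fgf2 (chromosome 3), basic FGF, is a mitogen of endothelial cells and fibroblasts. Its normalized read counts were 1.66, 1.98 and 2.30 in the libraries labelled male and 8.92, 9.02 and 7.22 in those labelled female. The gene was weakly expressed in both groups, which did not overlap. On the log2 scale Fgf2 rose by 1.66 (SE 0.13, limma adjusted p 1.03e-05). Exons of Nudt6, a protein-coding gene on the opposite strand, cover 9.44% of the exon bases of Fgf2 in GENCODE M21, and Nudt6 also rose (3.75 to 15.1, or 1.75 on the log2 scale, limma adjusted p 4.96e-06). Whether the counting used strand is not given in the sources used here, so reads of the shared stretch cannot be assigned to either gene.

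Pdgfa (chromosome 5) encodes the A chain, which binds receptor alpha. It was read at 15.3, 15.5 and 17.5 in the libraries labelled male and at 33.8, 33.9 and 33.3 in those labelled female. The libraries labelled female were nearly equal, and each was above every library labelled male. The increase on the log2 scale was 1.02 (SE 0.08, limma adjusted p 9.90e-06). An annotated antisense RNA, 6330403L08Rik, covers 26.1% of its exon bases and is not a row of the table.

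Pdgfb (chromosome 15) encodes the B chain, which binds both PDGF receptors and by which endothelial cells recruit pericytes. It was weakly expressed, at 0.581, 0.751 and 0.427 in the libraries labelled female, against 1.99, 2.44 and 2.30 in those labelled male. The counts behind it were small, from 9 to 17 reads and from 48 to 65 reads. The groups did not overlap, and Pdgfb fell by 1.03 on the log2 scale (SE 0.13, limma adjusted p 0.000135). By edgeR on the recovered reads the change was larger, at -1.93 (adjusted p 0.000197).

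**Figure D1:**
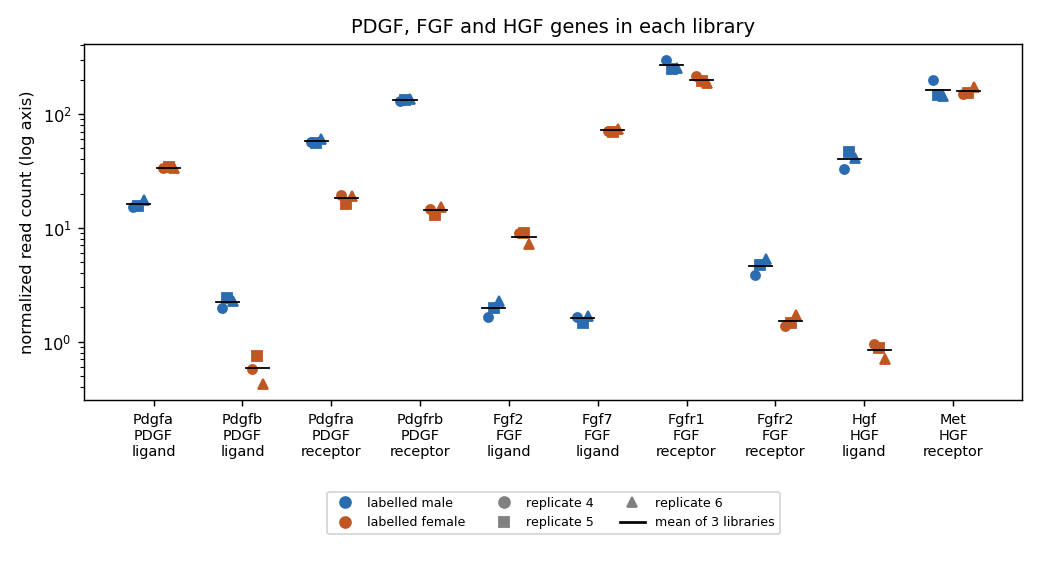
Normalized read counts (log axis) of the 10 genes in each library, with 1 point per library (colour for the sex label, shape for the replicate number) and a bar at the mean of 3. The groups separate for every gene but Met, most widely for Fgf7 (1.60 against 71.6) and Hgf (40.2 against 0.850).

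Among the receptors, both PDGF receptors and both FGF receptors fell, and Met did not pass the test. Pdgfrb fell most, to 10.8% of its male level, followed by Pdgfra at 31.6% and Fgfr2 at 32.8%. Fgfr1, the most abundant member, fell only to 74.6%. Of the 5 member receptors 4 were called lower, 0 higher and 1 was not called. Over all tested genes 69.3% were called and 34.6% were called lower.

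Pdgfrb (chromosome 18), the receptor by which pericytes and stellate cells respond to PDGF-BB, stood at 129, 133 and 136 in the libraries labelled male and at 14.6, 13.0 and 15.3 in those labelled female. Both groups were tight and lay far apart. Pdgfrb fell by 3.13 on the log2 scale (SE 0.08, limma adjusted p 2.65e-08), the 139th largest decrease among the tested genes. Pdgfra (chromosome 5), a receptor of fibroblasts and stellate cells, was read at 57.1, 56.0 and 60.7 against 19.5, 16.3 and 19.1, again without overlap. It fell by 1.61 on the log2 scale (SE 0.09, limma adjusted p 1.23e-06). Per kilobase of coding transcript, Pdgfrb (24.5 ± 0.693) stood above Pdgfra (8.48 ± 0.363) in every library labelled male. In those labelled female the pair overlapped, with Pdgfrb at 2.64 ± 0.217 and Pdgfra at 2.68 ± 0.262 (SD, n = 3), so no order is read there.

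Fgfr1 (chromosome 8), the FGF receptor of mesenchymal and endothelial cells, was at 296, 247 and 255 in the libraries labelled male and 217, 192 and 186 in those labelled female. The lowest male value exceeded the highest female one. The difference on the log2 scale was -0.42 (SE 0.09, limma adjusted p 0.00287). Fgfr2 (chromosome 7), whose IIIb splice form is the receptor of FGF7, was scarce at 3.86, 4.69 and 5.30 against 1.37, 1.46 and 1.71. It fell by 1.15 on the log2 scale (SE 0.13, limma adjusted p 8.61e-05), and the table gives 1 value per gene, so splice forms were not separated. Exons of Ctbp2, a protein-coding gene on the same strand, cover 3.04% of the exon bases of Fgfr2, and Ctbp2 was far higher and rose (71.9 to 101, or 0.48 on the log2 scale, limma adjusted p 0.000171), so reads of the shared stretch cannot be assigned to either gene.

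Met (chromosome 6), the HGF receptor, was at 197, 147 and 143 in the libraries labelled male and 149.7, 153 and 171 in those labelled female. The groups overlapped, with male replicate 4 the highest of all 6 libraries. The means were 163 ± 30.2 and 158 ± 11.3 (SD, n = 3), a log2 fold change of -0.03 with a 95% interval from -0.31 to 0.25 (limma adjusted p 0.842). With male replicate 4 left out, Met gave 0.12 on the log2 scale (limma adjusted p 0.104).

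Counted together, 3 members were called higher and 6 lower, beside 34.6% of all tested genes in each direction. Without Pdgfb and Hgf, 8 members remained that reached 1 in both groups, of which 3 were called higher, 4 lower and 1 was not called. Over these 8, the count test, edgeR on the recovered reads, also gave 3 higher and 4 lower, while calling 68.0% of its genes. The median log2 fold change was -0.73 over the 10 members and 0.01 over all tested genes, and the median absolute change was 1.38 against 0.46. Both member medians include Pdgfb and Hgf, which entered the test only through the libraries labelled male. They are therefore not read as a shift of the members. In the authors' deposited table, the false discovery rate was under 0.05 for 6 of the 10 members (3 higher, 3 lower) and for 25.8% of all genes. The 3 members called here but not in the authors' deposited table were Fgfr1 (0.218), Pdgfb (0.0575) and Fgfr2 (0.0537), given with their false discovery rates there.

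**Figure D2:**
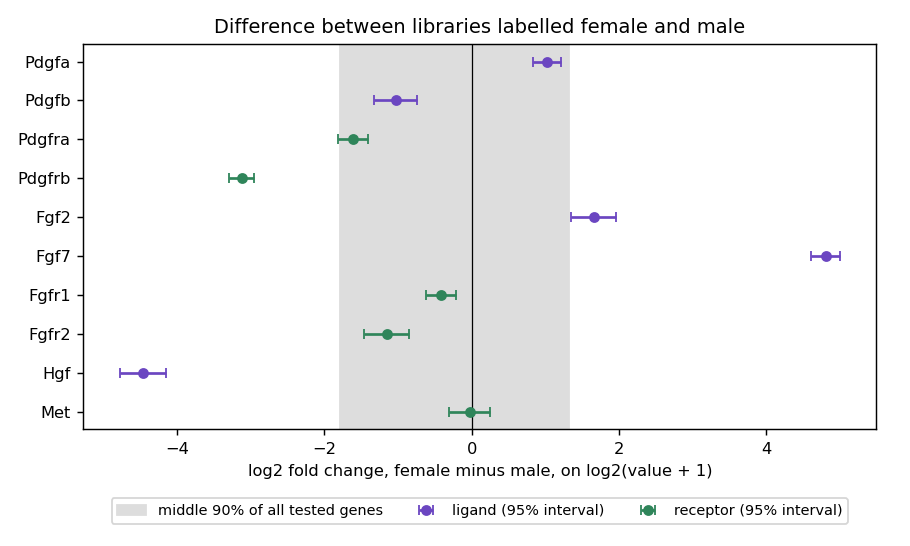
Log2 fold change of each gene, female minus male on the log2(value + 1) scale, with its 95% interval from limma, ligands and receptors in separate colours, and the range of the middle 90% of all tested genes (-1.78 to 1.32) in grey. Fgf7 and Fgf2 lie above that range, Hgf and Pdgfrb lie below it, and the interval of Met spans 0.

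To set genes beside each other, each normalized read count was divided by the length in kilobases of the longest coding transcript in GENCODE M21. On this scale, the order in the libraries labelled male was Fgfr1 (52.8), Pdgfrb (24.5), Met (23.9), Hgf (11.6), Pdgfra (8.48), Pdgfa (7.82), Fgfr2 (1.07), Pdgfb (0.762), Fgf7 (0.599) and Fgf2 (0.331). Pdgfrb and Met overlapped across the 3 libraries, as did Pdgfra and Pdgfa, and the other neighbours did not. In the libraries labelled female the order was Fgfr1 (39.4), Fgf7 (26.8), Met (23.2), Pdgfa (16.3), Pdgfra (2.68), Pdgfrb (2.64), Fgf2 (1.40), Fgfr2 (0.351), Hgf (0.245) and Pdgfb (0.199). There, Pdgfra and Pdgfrb overlapped, and so did Hgf and Pdgfb. Fgf7 moved from the ninth place to the second, and Hgf from the fourth to the ninth.

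Per kilobase, the summed level of the member ligands was set against that of the member receptors of the same family. Pdgfa and Pdgfb together came to between 25.2% and 27.2% of Pdgfra and Pdgfrb in the libraries labelled male and to between 289.7% and 349% in those labelled female. Fgf2 and Fgf7 came to 1.51% to 1.97% of Fgfr1 and Fgfr2 in the first group and to 65.1% to 76.9% in the second. Hgf moved the other way, from 32.8% to 61.7% of Met in the libraries labelled male to 0.819% to 1.25% in those labelled female. In all 3 families the groups did not overlap in this percentage. Transcript shares of this kind do not measure protein.

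These sums leave out other ligands and receptors of the families that were read, and the shares depend on them. A wider sum, added after the values were seen, also held Pdgfc and Pdgfd, the secreted FGF ligands Fgf1, Fgf9, Fgf18 and Fgf23, and the kinase receptors Fgfr3 and Fgfr4. With 4 ligands, PDGF came to between 38.5% and 42.0% of its receptors in the libraries labelled male and to between 496.8% and 579% in those labelled female. With 6 ligands and 4 receptors, FGF came to between 7.75% and 9.74% and to between 71.6% and 81.1%, so the groups stayed apart, and the male share was larger than with the members alone. Fgf18 (38.5%) and Fgf1 (33.4%) made up most of the FGF ligand sum in the libraries labelled male, where Fgf7 gave 12.7%, and Fgf7 gave 83.1% in those labelled female. Fgfr1 gave 96.8% and 93.6% of the FGF receptor sum.

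The same contrast was followed for pairs that bind each other, as log2(ligand + 1) minus log2(receptor + 1) within a library. Values within a group depend on transcript length, so only the difference between the groups is read, and for weakly expressed genes this difference depends on the pseudocount. No test was run on these ratios. Fgf7 to Fgfr2 went from -1.10 ± 0.20 to 4.85 ± 0.08 (SD, n = 3), a difference of 5.96, which was 6.94 with a pseudocount of 0.1. Hgf to Met went from -1.99 ± 0.49 to -6.42 ± 0.20, a difference of -4.44 (-5.37 with 0.1), with male replicate 4 the lowest of its group at -2.55. Pdgfa to Pdgfra went from -1.79 ± 0.05 to 0.85 ± 0.15, a difference of 2.63, while per kilobase the 2 genes overlapped in the libraries labelled male and Pdgfa stood higher in those labelled female. Pdgfb to Pdgfrb (2.09) and Fgf2 to Fgfr1 (2.07) were also higher in the libraries labelled female. Pdgfb to Pdgfra differed by 0.58, and this sign rests on the pseudocount, since with 0.1 in place of 1 the difference was -0.13.

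**Figure D3:**
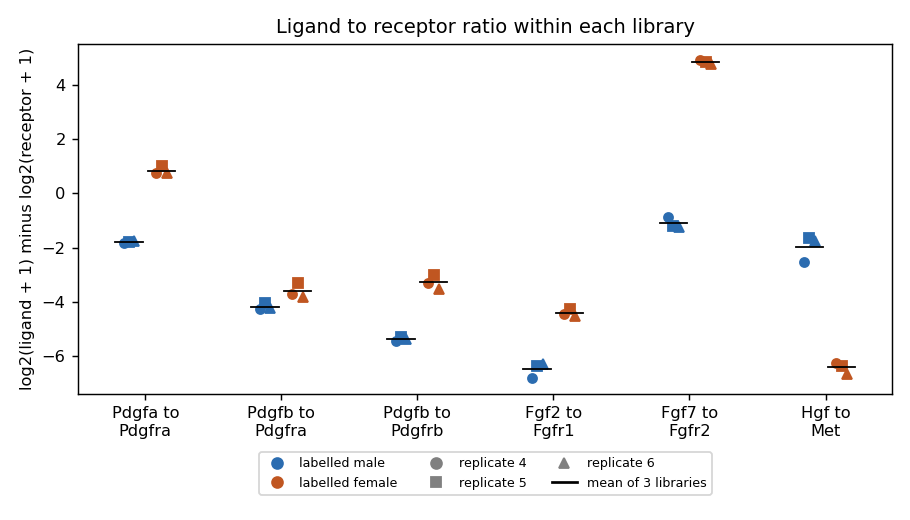
Log2 ratio of ligand to receptor within each library for 6 pairs, with 1 point per library and a bar at the mean of 3. Counts are not divided by length, so 0 does not mark equal levels. Fgf7 to Fgfr2 is higher in the libraries labelled female by 5.96, while Hgf to Met is lower there, with a difference of -4.44.

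Other genes of the 3 pathways were taken from a list of 71, of which 53 were in the table and 48 were tested. Of these, 20 were called higher and 19 lower, beside 34.6% of all tested genes in each direction. Their median log2 fold change was 0.02, close to that of all tested genes. Of the 48, 3 (Pdgfrl, Fgf11 and Spint1) reached a value of 1 in the libraries of 1 group alone, and so were tested only through the group in which they were high. Both counts include them, Spint1 among the higher and Pdgfrl and Fgf11 among the lower, and their calls support no count. Pdgfd, a ligand of receptor beta, had the largest increase of the list on the log2(value + 1) scale, with means of 4.49 ± 1.003 and 24.4 ± 1.28 (SD, n = 3) and a log2 fold change of 2.22. As a ratio of means Fgfr4 rose more, 6.06-fold against 5.43-fold for Pdgfd. Pdgfc, a ligand of receptor alpha, was at 10.8 and 13.0 and was not called (limma adjusted p 0.0787), but passed as higher without male replicate 4 (0.00369) and with quantile normalization (0.0486). Pdgfrl, a receptor-like gene without a kinase, fell from 3.33 to 0.397. Among ligands of the PDGF family, Pdgfa and Pdgfd thus rose, Pdgfb fell, and the call of Pdgfc rests on the libraries and scaling used.

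Of 20 further FGF ligands, 7 were in the table and 3 tested. Fgf1, acidic FGF, fell from 6.27 ± 0.375 to 1.66 ± 0.382 (SD, n = 3), opposite to Fgf2. Fgf11, an FGF that is not secreted, fell from 8.41 ± 3.27 to 0.606 ± 0.0687 (SD, n = 3), and its male spread came from replicate 4 at 12.2 against 6.48 and 6.57. Fgf18 rose from 1.97 to 3.65. Unlike Fgfr1 and Fgfr2, the other kinase receptors Fgfr3 (1.61 to 2.87, log2 fold change 0.58) and Fgfr4 (0.911 to 5.52, log2 fold change 1.78) rose, both from low levels. Fgfrl1, which lacks the kinase, was at 31.5 and 23.4 with overlapping groups, and its call as lower (limma adjusted p 0.0431) was lost with quantile normalization (0.0642), with no filter (0.0524), and when any library but male replicate 4 was left out (0.0550 to 0.142). Il17rd, an inhibitor of FGF signalling also named Sef, rose from 1.87 ± 0.304 to 9.04 ± 0.978 (SD, n = 3).

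Heparan sulfate proteoglycans hold FGF and HGF at the cell surface and help them bind their receptors. All 10 listed were tested, and 3 were called higher and 7 lower, beside 34.6% of all tested genes in each direction. Gpc3 had the largest decrease of the pathway list on the log2(value + 1) scale, with means of 41.4 ± 2.78 and 3.75 ± 0.407 (SD, n = 3) and a log2 fold change of -3.16. As a ratio of means the decrease of Fgf11, 13.9-fold, was larger than that of Gpc3. Sdc1 and Sdc4 fell by 1.24 and 1.12 on the log2 scale, whereas Sdc2 rose by 1.19. Of the genes around HGF, St14, whose protease matriptase can activate pro-HGF, rose from 2.76 to 11.1, and Spint1, its inhibitor, rose from 0.720 to 2.30. Spint2, a second inhibitor, was at 3.94 and 4.06 and was not called (limma adjusted p 0.835), and Hpn, whose protease hepsin can also activate pro-HGF, was at 1.19 and 0.246 without overlap and was too low to be tested. Mst1r, the MET-related receptor RON, was at 5.14 and 3.95 and was not called (limma adjusted p 0.0565), but passed as lower without male replicate 4 (0.00709) and with RLE size factors (0.0483). The 21 adaptors and effectors divided into 8 higher, 7 lower and 6 not called, with Rasa1, a RAS GTPase activator (42.7 to 136), and Pik3r1, a PI3K regulatory subunit (248 to 72.4), moving most in each direction.

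**Figure D4:**
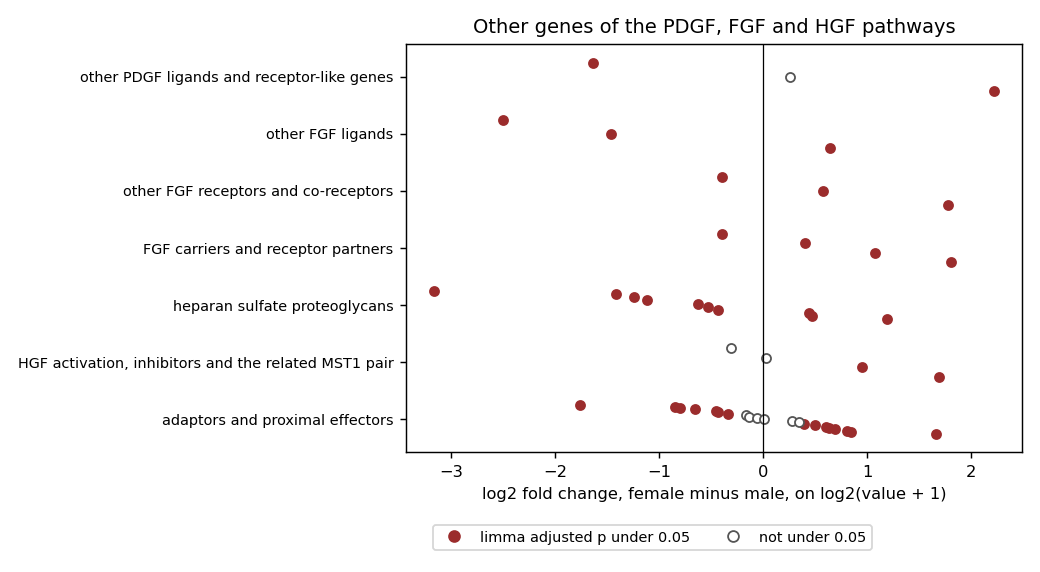
Log2 fold change, female minus male on the log2(value + 1) scale, of the 48 tested other pathway genes by role, with filled points for a limma adjusted p under 0.05 and open points otherwise. Calls lie on both sides of 0 within most roles, from Gpc3 at -3.16 to Pdgfd at 2.22.

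In a bulk culture, fewer cells of a type and less RNA per cell cannot be told apart, and several members are known as products of particular cell types. Markers of these types, with the members left out, moved between the groups too. So did most of the table, since 69.3% of all tested genes were called, 34.6% in each direction. Of 9 tested endothelial markers 7 fell and 1 rose in the libraries labelled female, where the list summed to between 1205 and 1260 against 2207 to 2334. Pecam1, the gene of CD31, averaged 73.9 ± 0.540 in these and 407 ± 16.2 in the others (SD, n = 3), and Cdh5 at 387 against 924, so both endothelial markers were read in all 6 libraries. Cldn5, an endothelial junction gene, was at 0.823 or less on average in both groups.

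Stellate, mural and fibroblast markers, which bear on Pdgfra, Pdgfrb, Hgf and Fgf7, did not move one way. Of 10 tested, 7 fell and 3 rose in the libraries labelled female, beside calls for 34.6% of all tested genes in each direction. The list summed to between 3366 and 4027 there, against 2706 to 3541 in those labelled male. Those that rose were the contractile genes Acta2 (78.6 ± 47.9 to 1694 ± 187, SD, n = 3), Tagln and Des, and those that fell included Col1a1, Col1a2, Col3a1 and Rgs5. Acta2 (1694) and Tagln (1057) were the largest parts of the list sum in the libraries labelled female. Col3a1 (1266) and Col1a2 (937) were the largest in those labelled male, so the sum hides opposite changes. Acta2 in male replicate 4 was 134, against 56.4 and 45.9 in male replicates 5 and 6. All 3 tested mesothelial markers were higher in the libraries labelled female, with a list sum of 319.7 to 371 against 17.2 to 20.7, most of it from Msln, and Upk3b was at 0 in every library labelled male. Of the 3, Upk3b and Wt1 entered the test only through the libraries labelled female, so their calls do not support a count. Lum, one of the 7 stellate, mural and fibroblast markers that fell, likewise entered only through those labelled male. Cholangiocyte markers summed to between 509 and 610.2 in the libraries labelled female and 1637 to 2484 in those labelled male. Of 4 tested, 3 fell (Spp1, Krt19 and Sox9, which made up most of the sum) and Krt7 rose from 1.84 to 9.19 (limma adjusted p 3.66e-05), while Epcam was at 0.231 or less on average in both groups. Hepatocyte markers summed to 1.22 or less in every library, with Alb at 0.584 and 0.0435. Of 7 macrophage and other leukocyte markers 3 were in the table, with a list sum of 7.30 to 9.49 in the libraries labelled male and 12.0 to 14.3 in those labelled female, and Ptprc was at 0 in every library labelled male. The part of these markers in the differences of the PDGF, FGF and HGF genes was not tested.

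**Figure D5:**
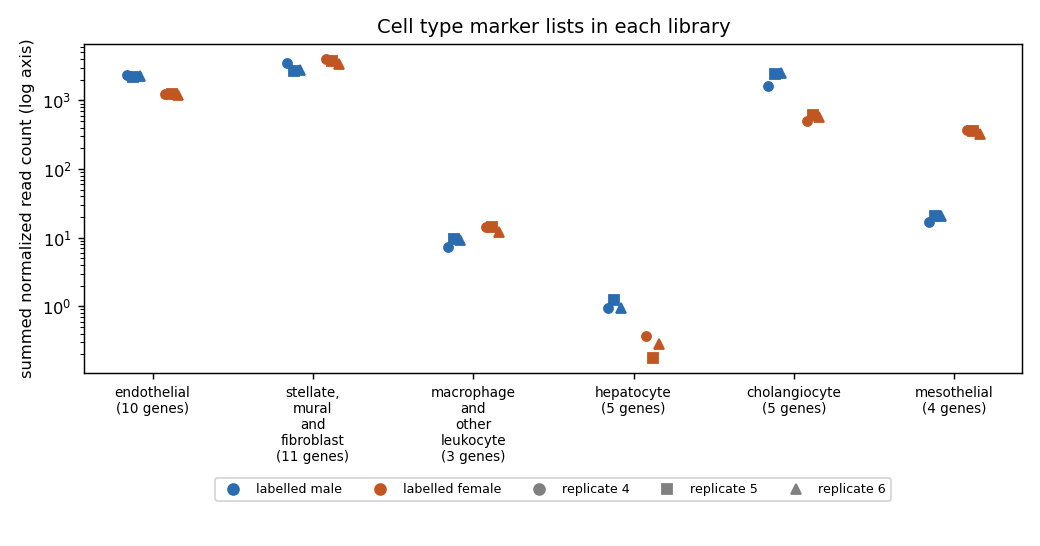
Summed normalized read count (log axis) of each marker list in each library, with 1 point per library, colour for the sex label and shape for the replicate number. Mesothelial markers stand far higher in the libraries labelled female (319.7 to 371 against 17.2 to 20.7). The endothelial and cholangiocyte sums stand lower there, although 1 tested marker of each list rose. The stellate, mural and fibroblast sums overlap, while genes of that list moved both ways.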

How the data were processed

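RNA was measured by poly(A) sequencing in 6 libraries, and the deposited table holds 1 column per library plus the authors' comparison. The submitters' processing notes name Bowtie2, RSEM, edgeR and the build mm39, with no role or version. The deposited signal values are read counts that the authors divided by 1 factor per library, since 100% of the values in each column were whole multiples (within 0.01 reads) of its smallest value above 0. The depth ranged from 22303270 to 31189363 reads. Per the file headers, a further deposited column (a score) gives the signed linear fold change between the sexes, and 2 others give its p-value and FDR. The rule behind the table's choice of detectable genes is not given in the sources used here, and 0 columns were left without a sample.

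The main test was limma (version 3.58.1, R 4.3.3, moderated with a trend on intensity). It used log2(value + 1) of genes that reached 1 in 3 or more libraries, with Benjamini-Hochberg adjustment over all 12568 and a threshold of 0.05. Alternatives used edgeR 4.0.16 and DESeq2 1.42.0 on the recovered reads, other scalings, filters and pseudocounts, and each library left out. No pairing by replicate number was found. Lengths and overlaps came from GENCODE M21 (GRCm38). Scripts were tested on simulated reads. All 10 members are named, with 5 Xist and Y-linked genes and the pathway genes with the 5 largest called changes in each direction, 6 fixed pathway genes, and the highest and lowest gene of each marker list. Other genes named were chosen after their values were seen. The members and lists were chosen with earlier results of these data known.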

Additional observations from a re-analysis of the deposited data

How the results depend on the processing

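Over the 8 members that reached 1 in both groups, the counts of 3 called higher and 4 called lower were the same under RLE size factors, quantile normalization, no filter, a pseudocount of 0.1, the replicate block, at least 10 reads in every library, edgeR, DESeq2 and with each library left out. Requiring 10 reads in every library removed Pdgfb from the test, so that 5 of all members were called lower in place of 6. Of 139 values recomputed for the members, 136 kept direction and call, and the other 3 were reversals of Met, which was not called in any. Quantile normalization gave 0.068 for its log2 fold change, and leaving out 1 library gave -0.11 to 0.12. Of 348 values of the 25 other genes named by the rule, 343 kept direction and call, 4 became calls (Pdgfc and Mst1r) and 1 reversed, Ddx3y, which ran from -0.21 to 0.13 with 1 library left out. Of 276 values of 20 further named genes, chosen after their values were seen, 267 kept direction and call, 7 lost the call (all Fgfrl1) and 2 reversed, both of Spint2, which was not called in any (-0.039 to 0.12 with 1 library left out). With a pseudocount of 0.1 the ligand to receptor difference reversed for Pdgfb to Pdgfra (-0.13) and moved for Pdgfb to Pdgfrb (1.41), Fgf2 to Fgfr1 (2.45), Fgf7 to Fgfr2 (6.94) and Hgf to Met (-5.37). In all, 8704 genes were called, and 8314 with the replicate block, which changed no call of a member. With 1 library left out the number ran from 7731 to 9496, the highest without male replicate 4, and the pathway calls ran from 19 to 24 higher and from 17 to 21 lower. The deviations of same-numbered libraries correlated at -0.09, -0.03 and -0.17 across genes. Among the members depth limits Pdgfb and Hgf most, at 9 to 23 reads in the libraries labelled female. Among the other pathway genes named, Hpn had 3 to 10 reads there, Fgf9 2 to 7, Fgf23 1 to 20, Pdgfrl 8 to 11 and Fgf11 12 to 15.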

Other observations

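Male replicate 4 differed from male replicates 5 and 6 in both directions over the members. Relative to the mean of those 2 libraries, Met was at 136%, Fgfr1 at 118% and Fgf7 at 106% in male replicate 4, while Hgf was at 75.3%, Fgfr2 at 77.2% and Fgf2 at 77.5%. Pdgfra (97.9%), Pdgfrb (95.7%) and Pdgfa (92.7%) were close to it, and Pdgfb was at 84.1%. In all, 7 of the 10 members were below the mean of male replicates 5 and 6. The labels give nothing that sets this library apart.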
